A study of Arabidopsis thaliana with 6 samples.

Results

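The 9 Arabidopsis thaliana genes described here write, maintain or remove 5-methylcytosine in DNA. They were chosen by name, by a rule that uses no measured value but with earlier results of these data known, as 9 of the 32833 genes in the deposited expression table: the methyltransferase genes MET1, CMT3, CMT2 and DRM2, the chromatin remodeller gene DDM1, and the DNA glycosylase genes ROS1, DME, DML2 and DML3. Fresh seeds of Columbia-0 (Col-0), the wild type, with 3 libraries, and of the double mutant asf1a1b (3 libraries), which lacks normal copies of ASF1A and ASF1B, the genes of the histone chaperone ASF1, were sequenced as total RNA. Plants were grown on soil in long days at about 21°C, and no source used here gives the mutant alleles. The labels speak both of harvest within 24 hours and of 4 days of stratification at 4°C, so the state of the sequenced seeds with respect to cold is not settled by them. Only transcripts were measured. The study's title concerns germination, and the comparison asks here how the transcripts of the DNA methylation machinery differ between mutant and wild-type seeds.

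In plants, cytosines are methylated in the sequence contexts CG, CHG and CHH, where H stands for any base but G. MET1 copies CG methylation after replication, CMT3 and CMT2 read methylated histone H3 lysine 9 and methylate non-CG sites, and DRM2 is the methyltransferase at the end of the RNA-directed DNA methylation pathway. DDM1 is a nucleosome remodeller that gives the methyltransferases access to heterochromatin. ROS1, DME, DML2 and DML3 cut methylcytosine out of DNA so that base excision repair can replace it. DME is best known from the central cell of the female gametophyte, where it sets up imprinted expression in the endosperm, and ROS1 from its own promoter, whose methylation keeps ROS1 expressed.

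Shown here are 3 stretches upstream of annotated gene starts, for the abundant pair DRM2 and ROS1, which stood on opposite sides in the mutant, and for DME, which rose with DRM2. Each has 250 bases, is written 5′ to 3′ on the gene's strand and comes from the RefSeq TAIR10.1 genome. They lie at chr5:4718705-4718954 on the minus strand (DRM2), chr2:15314808-15315057 on the minus strand (ROS1) and chr5:1308849-1309098 on the plus strand (DME). Capitals mark the motifs searched on both strands, which were the E2F site forms TTTCCCGC and TTTGGCGC, the core ACGTG of the abscisic acid response element (its palindrome CACGTG counts once per strand) and the RY element CATGCA of seed B3 factors.
DRM2: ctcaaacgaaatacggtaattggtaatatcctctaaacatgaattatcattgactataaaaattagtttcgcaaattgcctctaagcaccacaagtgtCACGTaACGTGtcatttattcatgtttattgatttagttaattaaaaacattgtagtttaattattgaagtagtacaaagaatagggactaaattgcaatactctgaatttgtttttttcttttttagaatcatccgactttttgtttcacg
ROS1: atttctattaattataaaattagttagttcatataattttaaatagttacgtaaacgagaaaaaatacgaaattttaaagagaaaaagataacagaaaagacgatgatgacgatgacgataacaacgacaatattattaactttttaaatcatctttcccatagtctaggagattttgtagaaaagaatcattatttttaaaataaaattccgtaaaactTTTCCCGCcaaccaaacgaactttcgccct
DME: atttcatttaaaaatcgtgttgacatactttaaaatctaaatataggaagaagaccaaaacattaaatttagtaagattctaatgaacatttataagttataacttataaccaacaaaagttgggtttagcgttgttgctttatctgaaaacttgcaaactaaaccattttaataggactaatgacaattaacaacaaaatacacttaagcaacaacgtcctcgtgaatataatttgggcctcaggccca

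The ROS1 stretch holds TTTCCCGC at positions -30 to -23 from the gene start, letters found in 0.62% of the 27443 nuclear protein-coding genes' stretches of the same length. It also holds 11 CG dinucleotides, where the median stretch holds 5 and the 90th percentile is 10. DRM2 has ACGTG on the strand opposite to the gene at positions -152 to -148 from its start and on the gene's strand at -146 to -142, and 22.91% of all stretches hold these letters. DME has none of the 4 motifs, 4 CG dinucleotides and a GC content of 29.2%. Among the other members, CMT2 and DML2 have ACGTG, and MET1, CMT3, DDM1 and DML3 have none of the 4 motifs in this window. RY letters were in 8.43% of all stretches and TTTGGCGC in 0.36%, and no member had either.

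Levels are given as rescaled TPM (a transcript level per length and depth that the authors had further scaled between libraries), a scale on which genes can be compared. Reads recovered from these values numbered 42771330 to 56017458 per library. A gene was tested with limma on log2(value + 1) where its mean over the 6 libraries was at least 1, a filter that 14663 genes passed, and called at a Benjamini-Hochberg adjusted p under 0.05. Because 5 of the 9 members are below that level, the recovered reads were also tested with limma-voom, over the 17494 genes with a mean of at least 10 reads. The first test had 4 members (DRM2, ROS1, DME and DML2), and the second also had MET1, DDM1 and CMT2. CMT3 and DML3 were in neither. Of the 4 members in the first test 2 were called, both higher in the mutant, against 30.6% of all genes tested (16.1% higher and 14.5% lower). Of the 7 on recovered reads 6 were called, 4 higher and 2 lower, against 33.0% of all genes tested (16.5% in each direction). Among those called, DME passed the limma minimum of 1, and CMT2 the minimum of 10 reads, only through the mutant libraries, where they are high. With no filter on low values limma called 4 members (DRM2, DME, DDM1 and MET1), against 19.6% of all genes tested. The authors' deposited table lists 6 members, of which 5 have an adjusted p under 0.05, against 38.5% of its genes, and it marks 1 as changed, against 8.76%. The labels were checked by the targeted genes. Summed by genotype, ASF1A had 1985 recovered reads in Col-0 and 288 in asf1a1b, and ASF1B had 367 and 32.

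**Figure D1:**
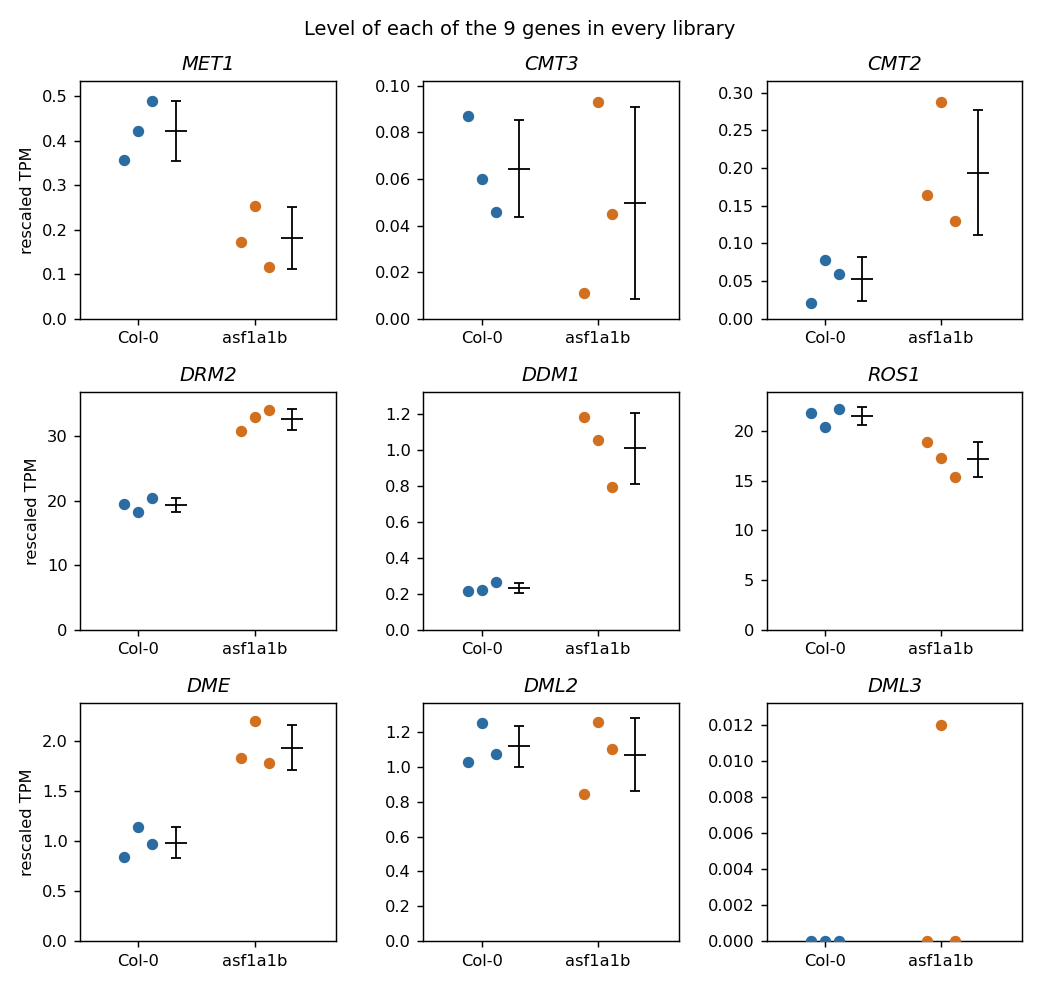
Rescaled TPM of each of the 9 genes, with 1 point per library (blue, Col-0; orange, asf1a1b), and the group mean with its SD (n = 3) as the black bar, left out for DML3, which has reads in 1 library. Each panel has its own scale from 0. The groups do not overlap for MET1, CMT2, DRM2, DDM1, ROS1 and DME, and overlap for CMT3, DML2 and DML3.

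DRM2 and ROS1 made up nearly all of the transcripts of this machinery in seed RNA, and the balance between them differed between the genotypes. Together they gave 90.7% to 94.2% of the summed level of the 9 genes in every library. In Col-0 their levels overlapped, and in asf1a1b DRM2 was above ROS1 in every library. DRM2 exceeded 85.0% to 86.3% of all genes in the table in Col-0 and 90.4% to 91.0% in asf1a1b, and ROS1 exceeded 86.3% to 87.2% and 83.1% to 85.2%.

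DRM2 (AT5G14620, chromosome 5, 4715105 to 4718704, minus strand, 10 merged exon blocks), the de novo methyltransferase, stood at 19.5, 18.3 and 20.5 rescaled TPM in the wild-type libraries (in the order of replicates 1, 2 and 3, as everywhere here) and at 30.8, 33.1 and 34.1 in the mutant libraries. Every mutant library was above every wild-type library. The group means were 19.4 ± 1.08 and 32.6 ± 1.67 (SD, n = 3), so that the mutant level was 1.68 times the wild-type level. The log2 fold change was 0.72 ± 0.10 (SE), with a limma adjusted p of 0.00352, and 0.69 ± 0.11 on recovered reads (limma-voom adjusted p = 0.00439). DRM2 kept its call in each fit run, including those that left out 1 library. The authors' deposited table puts its log2 fold change at 0.73 (adjusted p = 3.32e-07), but marks only genes with an absolute log2 fold change of at least 1.5, and so does not mark DRM2.

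ROS1 (AT2G36490, chromosome 2, 15307907 to 15314807, minus strand, 21 merged exon blocks), the main demethylase of vegetative tissue, stood at 21.8, 20.4 and 22.2 rescaled TPM in Col-0. In the mutant it stood at 18.9, 17.3 and 15.3. Every mutant library lay below every wild-type library, but the step was small, with group means of 21.5 ± 0.928 and 17.2 ± 1.77 (SD, n = 3) and a mutant level 0.799 times that of Col-0. Its log2 fold change of -0.31 ± 0.12 (SE; 95% interval -0.58 to -0.04) did not pass the limma test (adjusted p = 0.0757). On recovered reads it was -0.39 ± 0.12 and passed (limma-voom adjusted p = 0.0422), and it also passed in limma after median-of-ratios scaling (adjusted p = 0.0421) and without asf1a1b replicate 1 (adjusted p = 0.0494). On recovered reads the call held without asf1a1b replicate 1 (limma-voom adjusted p = 0.0273) and ended when any other library was left out (0.0556 to 0.161). The authors' deposited table gives an adjusted p of 0.0328.

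Within a library, the ratio of DRM2 to ROS1 does not depend on how libraries were scaled. It was 0.893, 0.896 and 0.922 in the wild type, and 1.63, 1.91 and 2.22 in the mutant. All 3 Col-0 values lay just under 1 and all 3 mutant values well above it. Since the 2 genes each separate the groups, in opposite directions, their ratio must separate them too and is no further evidence. The same holds for the ratios of MET1 to DDM1 and of DME to ROS1 below. Summed by role, the 4 glycosylase genes held 53.2% to 54.5% of the 9-gene sum in Col-0 and 34.2% to 40% in asf1a1b, and the 4 methyltransferase genes 45.0% to 46.2% and 57.8% to 64.4%. The sum itself was 41.9 to 45.6 rescaled TPM in Col-0 and 53.4 to 55.5 in asf1a1b. These sums follow DRM2 and ROS1 and say little of the rarer members.

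**Figure D2:**
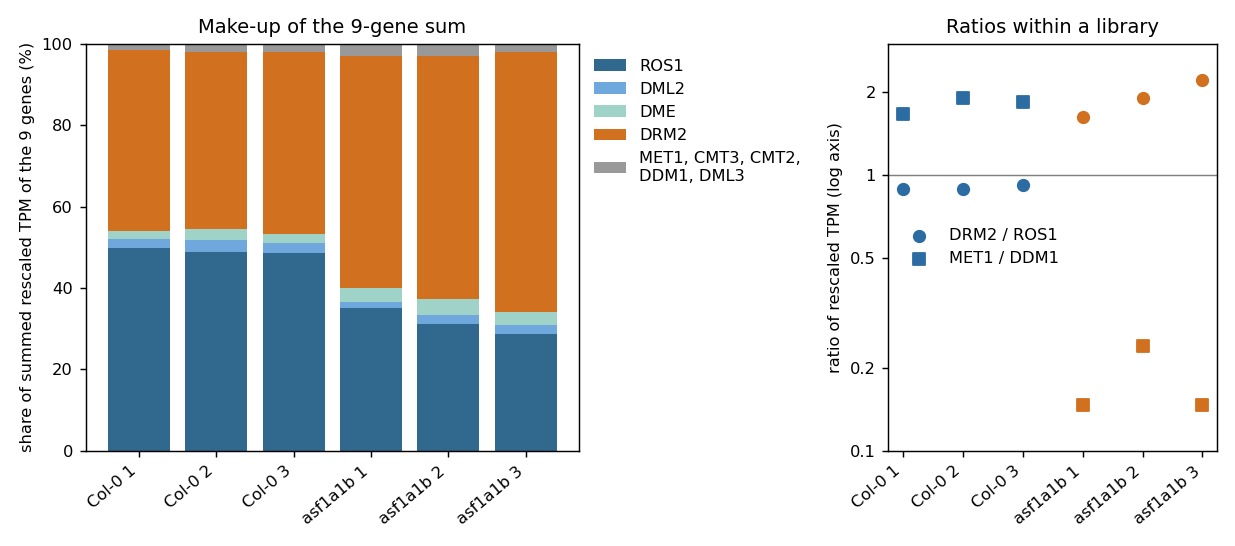
Left, share of the summed rescaled TPM of the 9 genes held by ROS1, DML2, DME and DRM2, and by the 5 rarer genes together, in each of the 6 libraries. Right, ratio of DRM2 to ROS1 (circles) and of MET1 to DDM1 (squares) in each library, on a log axis, with Col-0 in blue and asf1a1b in orange. DRM2 to ROS1 moves from 0.893 to 0.922 in Col-0 to 1.63 to 2.22 in asf1a1b, and MET1 to DDM1 from 1.67 to 1.91 to 0.146 to 0.24.

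Among the rarer methylation genes, the maintenance pair MET1 and DDM1 went in opposite directions on recovered reads. In wild-type seeds MET1 was the more abundant of the pair, and in mutant seeds DDM1 was. The ratio of MET1 to DDM1 was 1.67, 1.91 and 1.85 in the wild type, and 0.146, 0.24 and 0.146 in the mutant.

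DDM1 (AT5G66750, chromosome 5, 26648897 to 26653191, plus strand, 16 merged exon blocks) was at 0.213, 0.22 and 0.265 rescaled TPM in wild-type seeds, from 20, 20 and 26 reads. In mutant seeds it was at 1.18, 1.06 and 0.795, from 97, 123 and 79 reads. The lowest mutant library was thus far above the highest wild-type library. The mutant mean was 4.35 times the wild-type mean (1.01 ± 0.198 against 0.233 ± 0.0282, SD, n = 3), the widest ratio among the members for which one was computed. On recovered reads the log2 fold change was 2.01 ± 0.31 (SE; limma-voom adjusted p = 0.00405), and the call stayed whichever library was left out (adjusted p up to 0.0278). DDM1 is the only one of the 6 members in the authors' deposited table that is marked there as up, at a log2 fold change of 2.1 (adjusted p = 3.58e-07). None is marked as down.

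MET1 (AT5G49160, chromosome 5, 19932114 to 19938470, plus strand, 12 merged exon blocks), the CG methyltransferase, was at 0.356, 0.421 and 0.49 rescaled TPM in wild-type seeds (61, 70 and 88 reads). In mutant seeds it was at 0.173, 0.254 and 0.116 (26, 54 and 21 reads). The groups do not overlap, and the wild-type mean was 2.33 times the mutant mean (0.422 ± 0.0670 against 0.181 ± 0.0694, SD, n = 3). On recovered reads MET1 fell, with a log2 fold change of -1.31 ± 0.34 (SE; limma-voom adjusted p = 0.0225). That call was lost without Col-0 replicate 2, Col-0 replicate 3 or asf1a1b replicate 3 (limma-voom adjusted p = 0.0714, 0.0663 and 0.095). The authors' deposited table gives it an adjusted p of 0.013.

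CMT2 (AT4G19020, chromosome 4, 10414428 to 10421265, plus strand), the chromomethylase of CHH sites in heterochromatin, was scarce, with 3, 11 and 9 reads in the wild type against 21, 52 and 20 in the mutant. Its wild-type levels were 0.021, 0.078 and 0.059 rescaled TPM and its mutant levels 0.164, 0.287 and 0.129, again without overlap. Its Col-0 mean is under 10 reads, so that CMT2 entered the test on recovered reads only through the mutant libraries, where it is high. The ratio of means was 3.67 and the log2 fold change on recovered reads 1.89 ± 0.59 (SE; limma-voom adjusted p = 0.0406). Of the fits to recovered reads that left out 1 library, only the one without asf1a1b replicate 1 kept the call (adjusted p = 0.049, and 0.0614 to 0.108 in the others), and limma with no filter on low values did not call it (adjusted p = 0.0669). CMT3 (AT1G69770, chromosome 1, 26248118 to 26253687, minus strand), the chromomethylase of CHG sites, gave 9, 6 and 5 reads in the wild type against 1, 12 and 5 in the mutant. Its groups overlap, at 20 reads in all against 18, too few for either test.

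Among the glycosylases, DME rose while DML2 did not pass either test. DME (AT5G04560, chromosome 5, 1309099 to 1318520, plus strand, 18 merged exon blocks) was at 0.839, 1.14 and 0.976 rescaled TPM in wild-type seeds and at 1.84, 2.2 and 1.78 in mutant seeds. The groups do not overlap, and the mutant mean was 1.97 times the wild-type mean (1.94 ± 0.228 against 0.986 ± 0.152, SD, n = 3). The Col-0 mean lies just under 1, so that DME entered the limma test through the mutant libraries, while on recovered reads both groups were above the minimum. The log2 fold change was 0.57 ± 0.14 (SE; limma adjusted p = 0.021) on the log2(value + 1) scale, where changes of low genes look smaller than they are, and 0.93 ± 0.18 on recovered reads (limma-voom adjusted p = 0.00787). In limma the call ended when replicate 2 or 3 of Col-0 or of asf1a1b was left out (adjusted p = 0.057, 0.0603, 0.0803 and 0.0664), and on recovered reads it held whichever library was left out (adjusted p up to 0.03). The ratio of DME to ROS1 was 0.0385 to 0.056 in Col-0 and 0.0973 to 0.127 in asf1a1b.

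DML2 (AT3G10010, chromosome 3, 3081735 to 3088550, minus strand, 21 merged exon blocks) was at 1.03, 1.25 and 1.08 rescaled TPM in wild-type seeds and at 0.846, 1.26 and 1.10 in mutant seeds. The mutant values spanned the wild-type ones. Its log2 fold change was -0.04 with a 95% interval of -0.37 to 0.30 (limma adjusted p = 0.862), and -0.12 on recovered reads with an interval of -0.60 to 0.37. DML3 (AT4G34060, chromosome 4, 16313366 to 16319426, plus strand) had 0 reads in 5 libraries and 2 reads in asf1a1b replicate 2. Finding 0 reads in Col-0 allows a mean of up to 0.00726 rescaled TPM, taking 3 counts for the whole group as the floor, which covers counting error only.

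**Figure D3:**
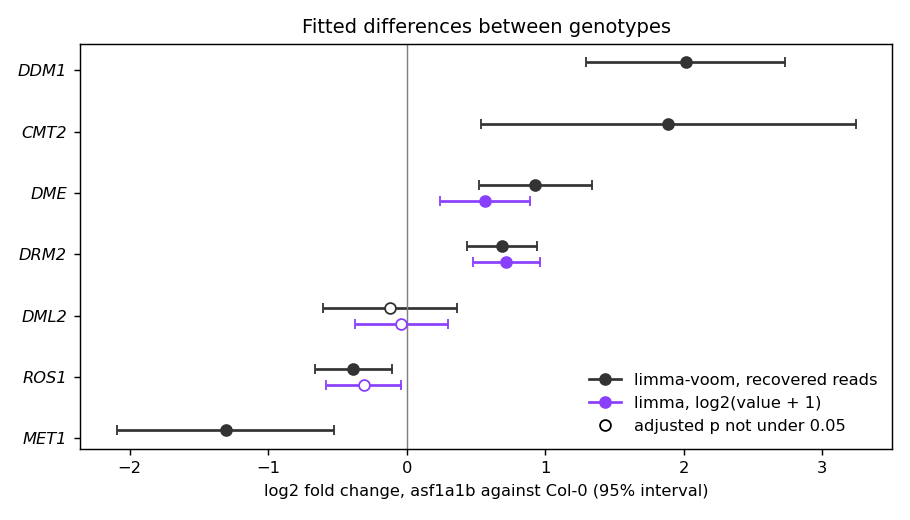
Log2 fold change of asf1a1b against Col-0 with its 95% interval for the 7 genes that could be fitted, from limma on log2(value + 1) (purple, 4 genes) and from limma-voom on recovered reads (black, 7 genes). Filled points have an adjusted p under 0.05. DDM1, CMT2, DME and DRM2 lie above 0 and ROS1 and MET1 below it, with DML2 spanning 0.

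Ordered by mean level, Col-0 seeds had ROS1, DRM2, DML2, DME, MET1, DDM1, CMT3, CMT2 and DML3. The ranges of neighbours in that order overlap for ROS1 and DRM2, for DML2 and DME, and for CMT3 and CMT2. In asf1a1b seeds the order was DRM2, ROS1, DME, DML2, DDM1, CMT2, MET1, CMT3 and DML3, with overlap for DML2 and DDM1, for CMT2 and MET1, and for CMT3 and DML3. DDM1 thus reached the range of DML2 in the mutant, and MET1 that of CMT2. Of the 7 members fitted on recovered reads, 6 had groups that do not overlap, a property that 48.6% of all 17494 genes tested there had. Of the 4 in the limma test 3 had it, against 47.5% of its genes. These counts include CMT2 on recovered reads and DME in limma, which passed those filters only through the mutant libraries.

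These seeds were sequenced whole, so fewer cells of a type and less RNA per cell cannot be told apart. Seed transcripts were abundant in all libraries, with the 8 seed markers summing to 78440 to 116700 rescaled TPM in Col-0 and 73810 to 101400 in asf1a1b. CRU2, a seed storage globulin, fell from 3784 to 1012 in the mean (limma adjusted p = 0.00294) and the other 7 did not pass in limma, while on recovered reads 2 of the 8 fell. Of all genes tested, 14.5% were lower and 16.1% higher in limma, and 16.5% were lower on recovered reads. The 7 endosperm markers summed to 6907 to 10330 and 9234 to 11140, nearly all of it EPR1, with IKU2 at 0 everywhere and 1 of the 2 tested members higher in the mutant. The 6 seed coat markers, with TT16 at 0 everywhere, summed to 0.619 to 2.14 in Col-0 and 5.01 to 7.41 in asf1a1b, mostly PRX36 (means 0.819 and 5.35). The 5 photosynthesis markers of leaf and silique summed to 19.4 to 28.1 and 58.5 to 110.1, mostly RBCS1A (means 16.8 and 71.0) and, in the mutant, LHCB1.3 (means 0.436 and 11.7), while RCA and PSAD1 overlapped between the groups (limma adjusted p = 0.636 and 0.772). The last 2 sums move with the genotype as DRM2, DDM1, CMT2 and DME do, and their part in those differences was not tested.

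**Figure D4:**
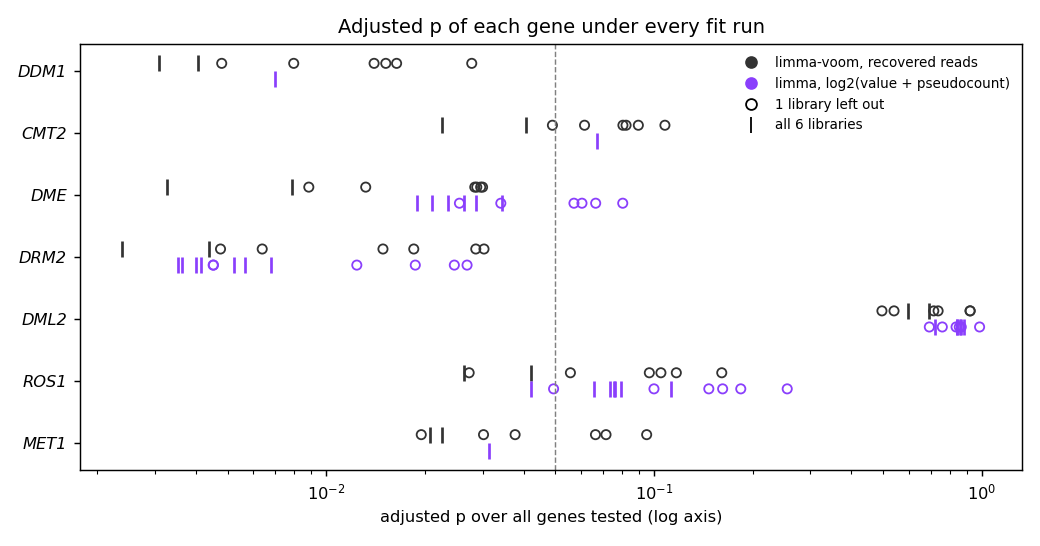
Adjusted p of each of the 7 fitted genes, on a log axis, under every fit run, from limma-voom on recovered reads (black) and limma on log2 values (purple, for DDM1, CMT2 and MET1 only the fit with no filter). Bars are fits to all 6 libraries, open circles leave out 1 library, and the dashed line is 0.05. DRM2 and DDM1 stay left of the line in each fit, DME in each fit on recovered reads, and CMT2, ROS1 and MET1 fall on both sides of it.

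The partners of MET1 were mixed. The VIM proteins bind hemimethylated CG sites and bring MET1 to them. Of 6 VIM and ORTH genes 5 were in the limma test, of which 3 rose, 1 fell and 1 did not pass (median log2 fold change 0.94, against 0.01 over all genes tested). Among all genes tested the shares that rose and fell were 16.1% and 14.5%. VIM3 (AT5G39550) was at 0.602, 0.956 and 1.14 rescaled TPM in wild-type seeds and at 3.09, 3.68 and 3.95 in mutant seeds (limma adjusted p = 0.0023, tested through its mutant level), and VIM2 (AT1G66050) rose from 1.45 to 4.74 in the mean (limma adjusted p = 0.00663). VIM4 (AT1G66040) rose from 1.10 to 3.14 (limma adjusted p = 0.0207), a call that needed replicate 2 of Col-0 and replicates 2 and 3 of asf1a1b (without 1 of them, up to 0.0887). VIM2 and VIM4 are close copies between which reads can be split. ORTHL (AT4G08590), which overlaps a gene on the other strand, fell from 6.88 to 1.85 (limma adjusted p = 0.00246). MET1, lower on recovered reads, thus stood opposite VIM2, VIM3 and VIM4 and on the same side as ORTHL. VIM1 and VIM5 did not pass (limma-voom adjusted p = 0.674 and 0.991).

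Of 30 listed genes of RNA-directed DNA methylation, the pathway of DRM2, 22 were in the limma test, of which 1 rose, 3 fell and 18 did not pass, with a median log2 fold change of -0.20. Over all genes tested 16.1% rose and 14.5% fell, so the share that fell was near that of all genes. SHH1 (AT1G15215), which brings RNA polymerase IV to chromatin, was at 3.65, 4.005 and 3.22 rescaled TPM in wild-type seeds and at 1.51, 0.965 and 0.716 in mutant seeds (limma adjusted p = 0.00393). KTF1 (AT5G04290), which binds the ARGONAUTE protein AGO4, fell from 5.75 to 2.53 in the mean (limma adjusted p = 0.0123), a call that needed both Col-0 replicate 2 and asf1a1b replicate 3 (without them in turn, 0.0543 and 0.0607). RDR2 (AT4G11130), the RNA polymerase that makes the double strand, fell from 1.51 to 0.846 (limma adjusted p = 0.0422, tested through its wild-type level). That call ended with the replicate block (adjusted p = 0.0516), with each library scaled to 1 total (0.0557) and when replicate 2 or 3 of either genotype was left out (0.106 to 0.151). FDM1 (AT1G15910), a double-stranded RNA binding factor, rose from 1.21 to 4.34 (limma adjusted p = 0.00126).

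**Figure D5:**
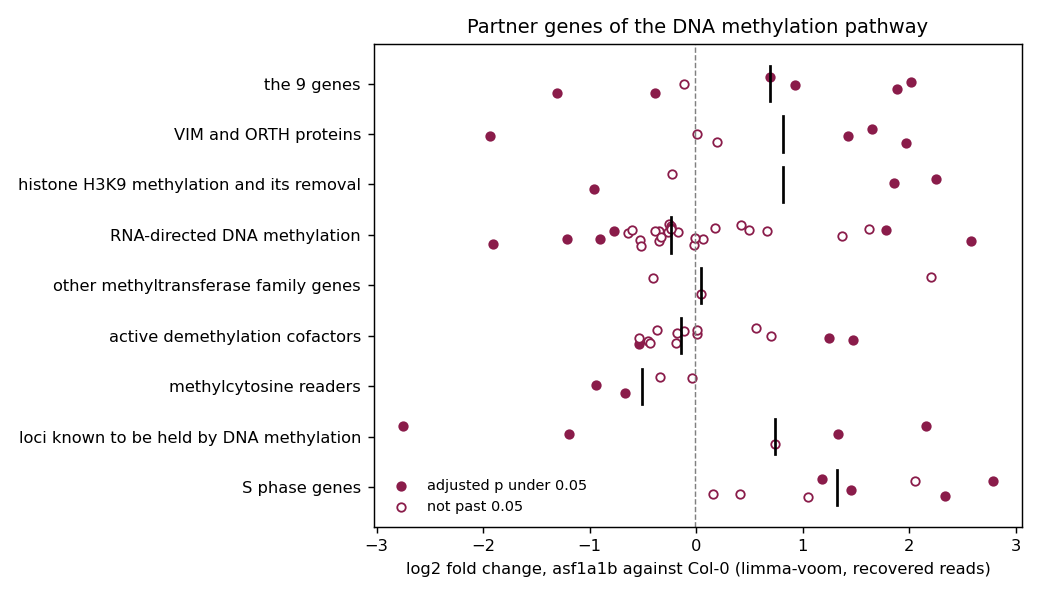
Log2 fold change on recovered reads (limma-voom) of the 9 genes and of 8 lists of related genes, 1 point per gene that could be fitted, filled where the adjusted p is under 0.05. Black bars are list medians and the dashed line the median of all genes tested. The VIM and S phase lists have medians of 0.811 and 1.32, and the RNA-directed DNA methylation list one of -0.239.

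CMT3 and CMT2 read the mark that SUVH4, SUVH5 and SUVH6 write on histone H3 and that IBM1 removes from genes. IBM1 (AT3G07610) was at 11.97 ± 1.82 rescaled TPM in Col-0 and fell to 6.38 ± 0.392 (SD, n = 3; limma adjusted p = 0.00637). SUVH4 and SUVH5, below the level of the limma test and singled out after their values were seen, rose from 42 and 19 reads in all of Col-0 to 164 and 105 in all of asf1a1b (limma-voom adjusted p = 0.0102 and 0.0113). SUVH5 passed the minimum of 10 reads only through the mutant libraries. SUVH6 did not pass (limma adjusted p = 0.595). Relatives of the members were low or did not pass. DRM3, a catalytically inactive relative of DRM2, had means of 8.49 and 9.25 (limma adjusted p = 0.619), DRM1 gave 0 reads in Col-0 against 4 in asf1a1b, and MET2 0 against 9. CMT1, whose groups do not overlap, gave 23 reads in all of Col-0 and 98 in all of asf1a1b (limma-voom adjusted p = 0.055). It passed the minimum of 10 reads only through the mutant libraries.

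Of 14 cofactors of active demethylation, which act with ROS1 and its relatives, 12 were in the limma test. Of these 2 rose and the other 10 did not pass, and on recovered reads 1 of 14 fell, with a median log2 fold change in limma of -0.12. The share that rose was near the 16.1% of all genes tested. AT3G14890, called a phosphoesterase in the annotation, was at 7.66, 6.06 and 5.41 rescaled TPM in wild-type seeds and at 17.0, 19.5 and 18.2 in mutant seeds (limma adjusted p = 0.00128). XRCC1 (AT1G80420), a scaffold of base excision repair whose gene overlaps a tRNA gene, rose from 2.59 to 6.28 in the mean (limma adjusted p = 0.00524). IDM1, the acetyltransferase that prepares chromatin for ROS1, did not pass (means 1.66 and 1.17, limma adjusted p = 0.171). Of 4 readers of methylcytosine, MBD5 (AT3G46580) fell from 3.75 to 2.11 and SUVH1 (AT5G04940) from 13.5 to 8.78 (limma adjusted p = 0.0207 and 0.0136), and MBD6 and SUVH3 did not pass. The share of all genes tested that fell was 14.5%. The call of MBD5 ended when replicate 2 or 3 of either genotype was left out, and that of SUVH1 when Col-0 replicate 2 or asf1a1b replicate 3 was (limma adjusted p up to 0.0901 and 0.0657).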

How the data were processed

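The submitters' processing notes name the TAIR10 build with HISAT2 2.2.1 and fastp 0.23.4. For the read counter, annotation and strand setting nothing is given in the sources used here. Deposited by the authors were signal values that the table calls TPM, but library totals run from 915126 to 1049698, so they are TPM rescaled by a step no source names. A second deposited table holds the authors' log2 fold changes and p-values for 15257 genes, by a test not given there.

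Value times merged exon length (RefSeq TAIR10.1) came out as multiples of a fixed step in each library, with 99.33% to 99.43% of values under 200 reads within 0.1 of a whole number. Reads were so recovered for 32548 genes. The design foresaw TPM or raw counts. The test for TPM was used: limma 3.58.1 in R 4.3.3 on log2(value + 1), genotype as the only term, two-sided. limma-voom used TMM factors on the recovered reads. Both were run on simulated data, where the share of false calls lay somewhat above the threshold for each and limma gave changes smaller than those put in. Symbols are RefSeq's or common names it lists as synonyms.

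Separate plants or harvests are not named for the libraries of a genotype, so a p-value speaks only of the spread among these samples, possibly a technical one. Deviations of same-numbered libraries correlated at 0.427, 0.144 and 0.327 over 14663 genes. Unlike-numbered libraries correlated at -0.483 to 0.381, the highest being Col-0 replicate 3 with asf1a1b replicate 2. Same-numbered libraries were thus not all closer than unlike-numbered ones, and no label names what they share. Whether the numbers pair the samples is therefore not settled. The main fits had no term for a pairing, and a replicate block was an alternative. Members and lists were chosen with earlier results of these data known. Named by rule are the 9 members, the targeted genes and up to 4 called genes per list with the largest change. The rule also names the 3 genes whose profile is closest to that of the member with the largest rise called in limma. Other genes named here, such as tissue markers, relatives of the members and list genes that did not pass, are outside that rule. No member overlaps another annotated gene. Other settings were another pseudocount, filter and scaling, and leaving out each library.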

Additional observations from a re-analysis of the deposited data

How the results depend on the processing

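Counts depended on the filter and on single libraries more than on the pseudocount or scaling. Of all genes 4494 were called, 2544 with a mean of at least 5, 5825 with the replicate block and 1767 to 4999 when 1 library was left out. Of the members 2 were called, 1 with a mean of at least 5 (DRM2), 4 with no filter, 6 on recovered reads and 6 on recovered reads with the replicate block, and 1 to 3 in limma and 3 to 6 on recovered reads when 1 library was left out. The related lists had 15 calls, 3 with a mean of at least 5, 23 with no filter, 26 on recovered reads, 37 on recovered reads with the replicate block, and, when 1 library was left out, 8 to 20 in limma and 16 to 30 on recovered reads (29 without asf1a1b replicate 1). Over all genes tested, the share called was 30.6% in limma, 19.6% with no filter and 33.0% on recovered reads. Of the 9 members, 4 were tested in limma and 7 on recovered reads. Numbers tested changed with the filter, so these counts do not share 1 base. For recovered reads with a block or with 1 library left out, no count over all genes was made. The member and list counts of those fits therefore have no background beside them. Blocking on the replicate number ended the limma call of RDR2 (adjusted p = 0.0516) and changed the call of no member under either test. Calls of other listed genes changed too, since the related lists had 18 calls in limma with that block, against 15 without it. Among the fitted members and the called list genes named by rule, no called result changed sign under the alternatives run for them. Signs of other called genes were not compared across fits. The fits of recovered reads that left out 1 library or had a block were added after seeing the data. Median-of-ratios scaling moved the median of all genes from 0.01 to -0.05 (log2). Depth limits CMT3, CMT2 and DML3, which rest on at most 52 reads in any library. It also limits MET1, with 26, 54 and 21 reads in asf1a1b, and DDM1, with 20, 20 and 26 in Col-0.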

Other observations

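Loci known to be held by DNA methylation in other work were mostly too low for the limma test, with 1 of 8 tested and 0 called (adjusted p of AT4G18650, annotated as a maternally expressed imprinted gene, 0.0678, unadjusted p 0.0239). On recovered reads 5 were tested, of which 2 rose and 2 fell, against 16.5% of all genes tested in each direction. The loci below are named after their values were seen. QQS, a young gene with a methylated flank, rose from 10 reads in all of Col-0 to 55 in all of asf1a1b (limma-voom adjusted p = 0.0221), and passed the minimum of 10 reads only through the mutant libraries. FIS2, an imprinted Polycomb gene that DME activates, rose from 37 to 95 (limma-voom adjusted p = 0.0481). ALN, the allantoinase gene, fell from 211 to 39 (limma-voom adjusted p = 0.00997), and AT4G18650, whose groups overlap, fell from a mean of 65.2 to 31.98 rescaled TPM (limma-voom adjusted p = 0.0408). FWA, which methylation silences outside the endosperm, did not pass (30 and 59 reads, limma-voom adjusted p = 0.223). MEA had 0 reads in Col-0 and 8 in asf1a1b.

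S phase genes, with which MET1 is known to be expressed, were higher or did not pass. In limma 2 of 4 tested rose, and on recovered reads 4 of 8, against 16.1% and 16.5% of all genes tested. Of the 4 on recovered reads, MCM3 and MCM6 passed the minimum of 10 reads only through the mutant libraries. MCM5 (AT2G07690), of the replicative helicase, rose from 0.533 to 1.53 rescaled TPM and TSO2 (AT3G27060), a ribonucleotide reductase subunit, from 1.34 to 3.21 (limma adjusted p = 0.0128 and 0.00979). MCM5 passed the minimum mean of 1 only through the mutant libraries and was below it, and so not tested in limma, when any of them was left out. The call of TSO2 needed asf1a1b replicate 3 (without it, limma adjusted p = 0.0509).

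The 3 tested genes whose profile over the 6 libraries was closest to that of DRM2, each centred on its own mean, were CNGC9 (AT4G30560), AT4G38640 and ACBP6 (AT1G31812), at root mean square differences of 0.0421, 0.0452 and 0.0481 on the log2 scale. DRM2 was matched because its log2 fold change was the largest rise called in limma (0.72, against 0.57 for DME). DDM1, CMT2 and DME had larger ratios of means, and DDM1 and CMT2 were not in the limma test. No member was called as lower in limma, so none was matched on that side.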
